A study of Rattus norvegicus with 19 samples.

Results

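The genes described here encode the mitogen-activated protein (MAP) kinase cascades and the dual-specificity phosphatases, as measured in the retinas of diabetic rats with and without insulin. They were chosen by the symbols of the array annotation, which had to begin with Mapk, Map2k, Map3k, Map4k or Dusp and a number or with Mapkapk. Of the genes that fit, 2 (Map4k1 and Dusp1) were left out by name and 58 remained. Of these, 37 were detected, among 7345 named genes detected in the whole data set. A probe counted as detected where its detection p stayed below 0.05 throughout 1 group or more. All 37 had a single detected probe. Total RNA of whole retinas, with the pigment epithelium included, was hybridized to Illumina RatRef-12 BeadChips, 1 rat per array. The insulin-treated diabetic rats (labelled STZ + insulin, n = 7) and the diabetic rats (STZ, n = 5) had both received streptozotocin at 65 mg/kg, a toxin of the insulin-producing beta cells, and only animals with blood glucose above 250 mg/dL entered these groups. From week 6 the insulin-treated rats carried insulin pellets under the skin of 26 mg, and further pellets were given when glucose or body weight called for them. The non-diabetic rats (Control, n = 7) received the vehicle alone. All were male Sprague-Dawley rats whose retinas were taken at month 3, so that the insulin group had been diabetic for weeks before treatment began. The groups were matched in age, which is not given in the sources used here.

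MAP kinase cascades are relays of 3 kinases. A MAP3K phosphorylates a MAP2K, which phosphorylates a MAP kinase on a threonine and a tyrosine, and kinases of the MAP4K family can act above the MAP3K. The main branches end in ERK, which answers to growth factors, and in JNK and p38, which answer to stress and cytokines. Scaffold proteins hold the kinases of a branch together, and the MAP kinase phosphatases, a subset of the Dusp family, remove both phosphates and end the signal. Other Dusp proteins act on further proteins, on lipids or on RNA. In the retina these cascades are known from the response of Muller glia and neurons to injury and metabolic stress. The roles given below are known mainly from human and mouse proteins. The arrays measured mRNA and not phosphorylation.

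Signals are given on the log2 scale after the authors' normalization, with values under 10 set to 10, and differences are differences of mean log2 signal. All 3 groups were compared in 1 limma model over 10718 detected probes, and a call means a Benjamini-Hochberg adjusted p under 0.05 over all of them. A BeadChip is a slide that carries several arrays. The 19 arrays came from 2 of them, with 4 insulin-treated, 2 diabetic and 3 control arrays on BeadChip 1 and 3, 3 and 4 on BeadChip 2. Between 11239 and 11824 probes were detected per array, and the mean correlation of an array with the others of its group lay between 0.971 (diabetic replicate 3) and 0.989. All 8 retina markers with a named probe, among them the photoreceptor genes Sag and Gnat1, were detected. In diabetic against control retinas 6 of these 8 had higher means, and Crx (10.46 against 10.81) and Nrl (8.93 against 9.23) had lower ones. There 0 were called and 2 had an unadjusted p under 0.05. In insulin-treated against diabetic retinas 1 was called, and in insulin-treated against control retinas 0. Lens markers were present in every group, although the lens was removed at dissection. Of the 20 listed, 11 had a named probe, all 11 were detected and none was below detection on all arrays. Their summed signal ranged from 2378 to 19480 in insulin-treated, from 15740 to 102700 in diabetic and from 5925 to 75640 in control retinas. In diabetic against control retinas all 11 lens markers had higher means and 0 were called (4 at an unadjusted p under 0.05), and in insulin-treated against diabetic retinas all 11 were lower and 9 were called. In insulin-treated against control retinas all 11 had lower means (median difference -1.98), with 0 called and 6 at an unadjusted p under 0.05. Values with the lens level as a covariate are given after the results by gene. The summed signal of 3 detected markers of Muller glia and astrocytes was 8081 to 10020 in insulin-treated, 10110 to 14860 in diabetic and 8731 to 11840 in control retinas, with medians of 8551, 11210 and 11250. Of these 3 markers 1 was called in insulin-treated against diabetic retinas and 0 in diabetic against control retinas, where Vim had the higher mean in diabetic retinas (12.56 against 12.23) and Rlbp1 the lower (10.93 against 11.25). The 3 detected pigment epithelium markers had lower means in diabetic than in control retinas (median difference -0.99) and in insulin-treated than in control retinas (-1.04), with 0 called. Their part in the results was not tested. In whole retinas, fewer cells of a type and less RNA per cell cannot be told apart.

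Retinas of diabetic rats held less mRNA of the phosphatase genes Dusp11 and Dusp12 than control retinas, and with insulin both stood near the control level. These were the only members called in diabetic against control retinas, 2 of 37 (5.41%), beside 2.79% of all detected probes. Both were lower, where 1.9% of all probes were called lower and 0.886% higher. At an unadjusted p under 0.05 there were 7 members, or 18.9% beside 20.8% of all probes. In insulin-treated against diabetic retinas 6 of 37 members were called (16.2%, beside 10.4% of all probes), and 10 had an unadjusted p under 0.05 (27%, beside 27.1% of all probes). Dusp11, Dusp12, Dusp8 and the MAP3K gene Map3k7 were higher with insulin, and Dusp6 and the JNK scaffold gene Mapk8ip1 were lower, so that 4 were higher (6.49% of all probes) and 2 lower (3.93% of all probes). Against control, insulin-treated retinas had 0 called members (0.00933% of all probes were called) and 3 at an unadjusted p under 0.05 (8.11%, beside 8.98% of all probes). The median difference of the members lay close to that of all probes, at -0.041 against -0.067 for diabetic minus control, 0.11 against 0.060 for insulin-treated minus diabetic and 0.024 against -0.0046 for insulin-treated minus control. The difference was above 0 in 14 members for diabetic against control (35.3% of all probes), in 25 for insulin-treated against diabetic (61.3%) and in 22 for insulin-treated against control (48.3%). These counts and medians include Dusp19 and Map3k14, which passed the detection filter only through the insulin-treated group. Both comparisons with the diabetic group use the same 5 diabetic arrays, so an opposite sign in them is not independent evidence. The difference turned sign between them in 31 of 37 members. The share of all probes that did so is not given here, so this count cannot be judged against it.

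**Figure D1:**
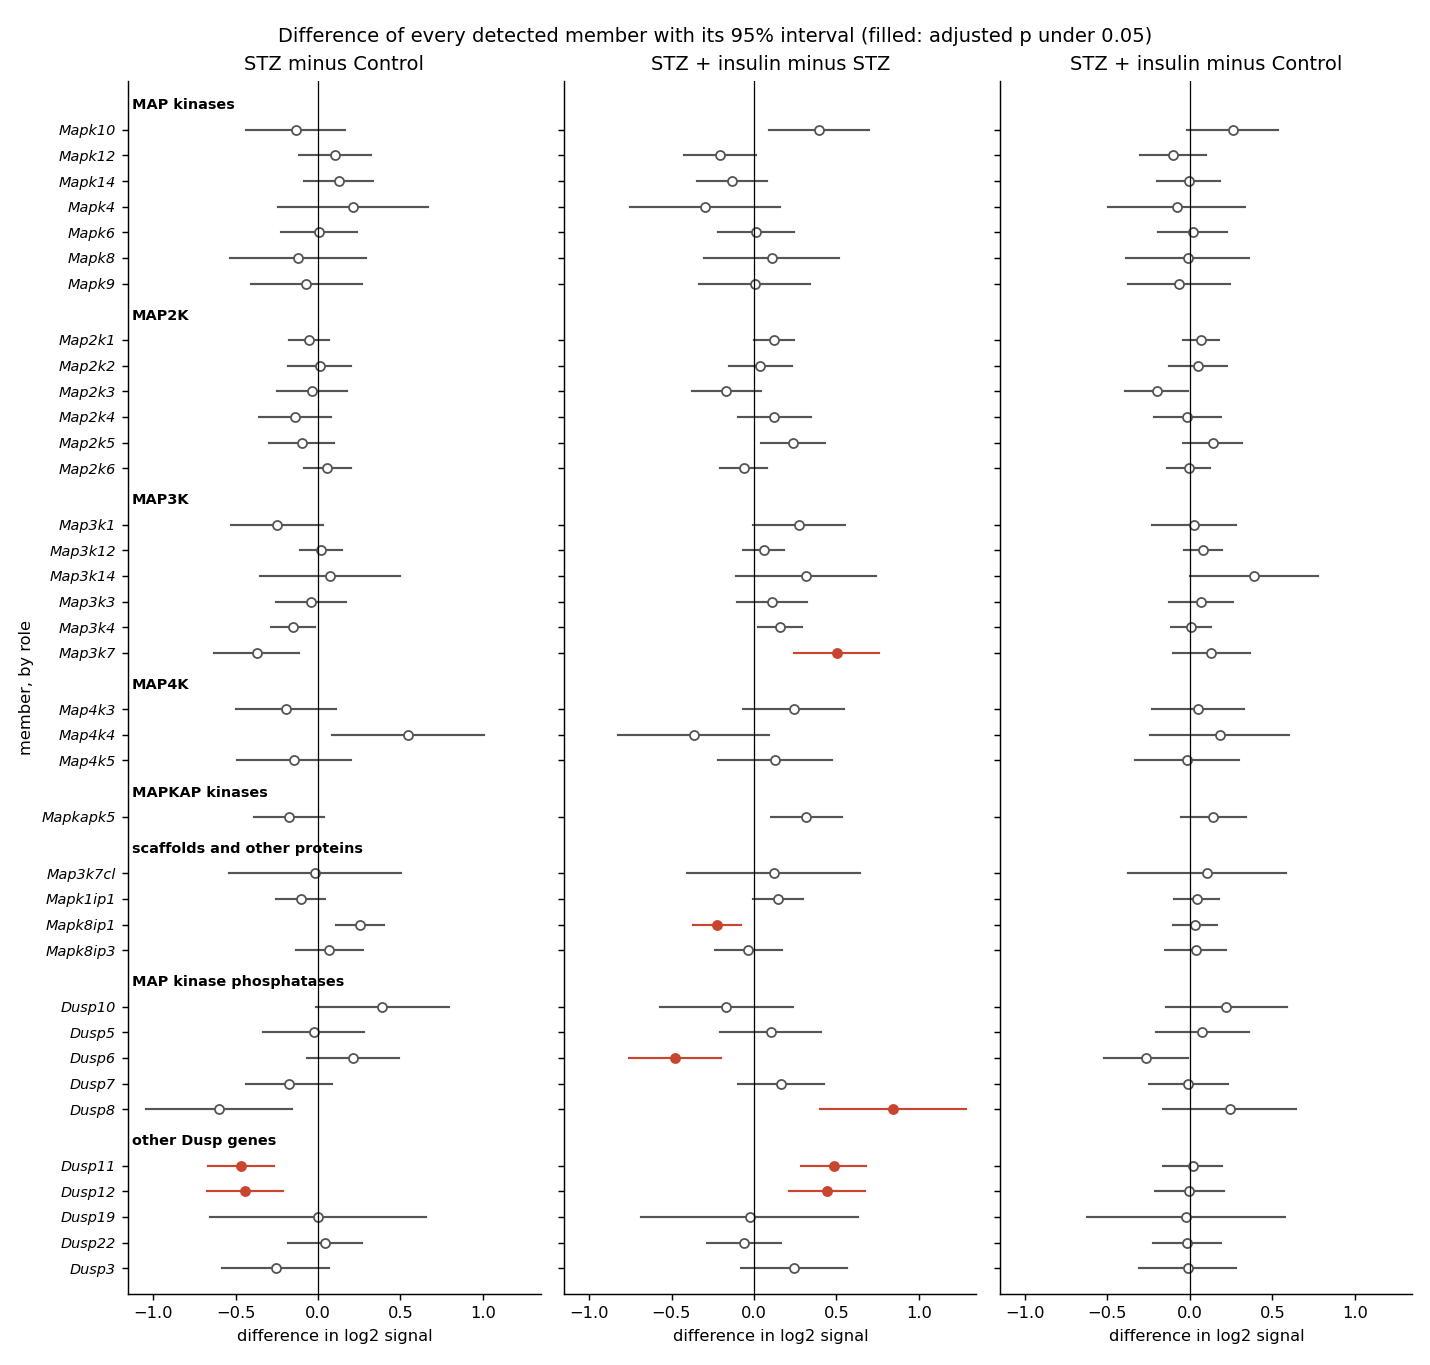
Difference in mean log2 signal (horizontal axis) with its 95% interval from limma for each of the 37 detected members, grouped by role, in the 3 comparisons. Filled red points passed the adjusted p: 2 for STZ minus Control, 6 for STZ + insulin minus STZ and 0 for STZ + insulin minus Control.

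Among the Dusp genes outside the classical MAP kinase phosphatases, which carry a MAP kinase binding domain, 5 of 12 were detected, and 2 of the 5 were called in both comparisons with the diabetic group. Dusp11 (probe ILMN_57384) encodes a phosphatase that removes the 5′ triphosphate of RNA rather than a phosphate of a MAP kinase. Its log2 signal was 8.30 at the lowest, 8.63 at the median and 8.78 at the highest in insulin-treated retinas. In diabetic retinas it was 8.28, 7.91, 8.34, 7.94 and 8.10, and in control retinas 8.38, 8.59 and 8.80 at the lowest, median and highest. All 5 diabetic arrays lay below all 7 control arrays, and the insulin-treated range overlapped the diabetic range through a single array, replicate 4. Diabetic retinas held 0.724 of the control level, a difference of -0.47 (SE 0.094, adjusted p = 0.0163). Insulin-treated retinas held 1.40 times the diabetic level, a difference of 0.48 (SE 0.094, adjusted p = 0.00681). Between insulin-treated and control retinas the difference was 0.016, with a 95% interval of -0.16 to 0.20. Each of the 19 arrays could be left out without loss of either call, with adjusted p from 0.0101 to 0.0471 and from 0.00353 to 0.02.

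Dusp12 (probe ILMN_59942) encodes a dual-specificity phosphatase with a zinc-binding domain. It had 7.58, 7.98 and 8.08 at the lowest, median and highest in insulin-treated retinas. The diabetic arrays had 7.74, 7.46, 7.11, 7.33 and 7.64, and the controls ranged from 7.73 to 8.04 with a median of 7.94. A single diabetic array, replicate 1, reached into the control range, at its lower end. The difference was -0.44 for diabetic minus control (SE 0.11, adjusted p = 0.0398) and 0.44 for insulin-treated minus diabetic (SE 0.11, adjusted p = 0.0187), while insulin-treated and control means differed by -0.0027 (95% interval -0.21 to 0.21). The call against control was narrow. It was lost without any 1 of 9 arrays (control replicates 1, 2, 3, 5, 6 and 7 and diabetic replicates 2, 3 and 4), with adjusted p up to 0.0839, and after quantile normalization (adjusted p = 0.0623). The call for insulin-treated against diabetic retinas was kept without each of the 19 arrays (adjusted p from 0.00922 to 0.049). It was lost with array weights, the replicate number as a block and only the 2 groups compared (limma, adjusted p from 0.0557 to 0.063). By the methods' t-test it was lost as well (adjusted p = 0.0862).

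The other detected Dusp genes of this group differed little or varied widely. Dusp3, which acts on ERK and JNK, averaged 6.53 ± 0.13 in insulin-treated (SD, n = 7), 6.29 ± 0.33 in diabetic (SD, n = 5) and 6.54 ± 0.34 in control retinas (SD, n = 7). Dusp22, an activator of the JNK pathway in cell culture, stood at 6.85, 6.92 and 6.87 in the same order of groups. Dusp19 passed the detection filter only through the insulin-treated group and was detected on 3 of 5 diabetic and 4 of 7 control arrays, where its SDs were 0.77 and 0.68.

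**Figure D2:**
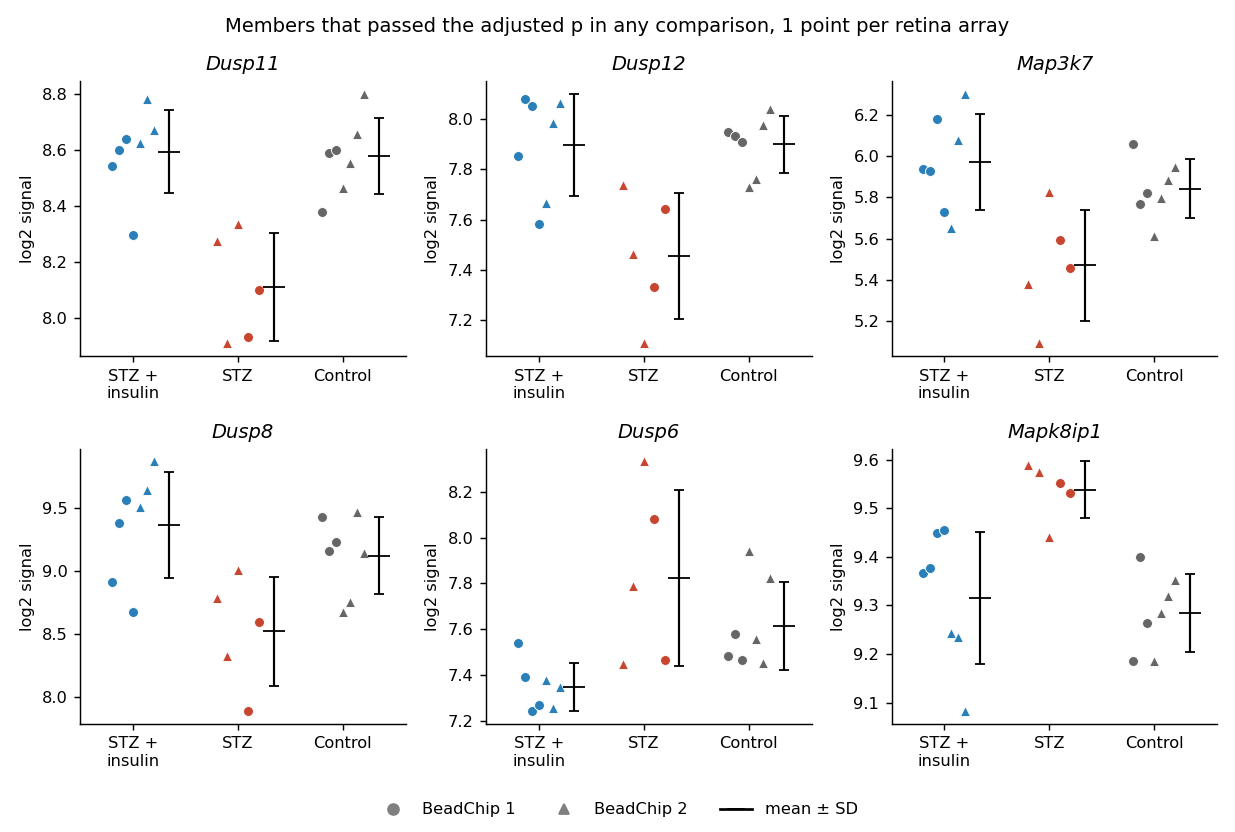
Log2 signal (vertical axis) of the 6 members that passed the adjusted p in any comparison, with 1 point per array, circles for BeadChip 1, triangles for BeadChip 2 and bars for the mean ± SD of each group. Dusp11, Dusp12, Map3k7 and Dusp8 are lowest in the diabetic group, and Dusp6 and Mapk8ip1 are highest there.

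The promoters of called members are shown because Dusp11, Dusp12, Map3k7 and Dusp8 moved the same way in these arrays, with Dusp6 as a member that moved the other way. They are the RefSeq sequences of build GRCr8 from 250 bases before to 50 bases after the annotated start, in the direction of the gene, at chr4:119942518-119942817 (minus strand) for Dusp11, chr13:85663958-85664257 (minus strand) for Dusp12, chr5:51154102-51154401 (plus strand) for Map3k7, chr1:206612392-206612691 (minus strand) for Dusp8 and chr7:35979354-35979653 (plus strand) for Dusp6. Of the 37 members, 32 matched this table by gene identifier, and Mapk8ip1 was not among them. Capitals mark the cAMP response element, the only match among 4 motifs searched on both strands.
Dusp11: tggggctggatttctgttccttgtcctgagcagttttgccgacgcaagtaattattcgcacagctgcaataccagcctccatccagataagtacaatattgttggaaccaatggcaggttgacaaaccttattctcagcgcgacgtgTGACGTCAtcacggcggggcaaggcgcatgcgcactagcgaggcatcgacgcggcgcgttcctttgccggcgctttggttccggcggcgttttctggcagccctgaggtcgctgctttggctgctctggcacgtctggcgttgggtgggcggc
Dusp12: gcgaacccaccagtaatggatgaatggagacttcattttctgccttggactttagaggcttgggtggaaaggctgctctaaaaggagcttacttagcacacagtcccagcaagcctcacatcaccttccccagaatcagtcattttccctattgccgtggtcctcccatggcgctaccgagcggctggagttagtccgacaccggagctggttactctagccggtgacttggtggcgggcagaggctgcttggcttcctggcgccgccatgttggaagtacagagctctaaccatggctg
Map3k7: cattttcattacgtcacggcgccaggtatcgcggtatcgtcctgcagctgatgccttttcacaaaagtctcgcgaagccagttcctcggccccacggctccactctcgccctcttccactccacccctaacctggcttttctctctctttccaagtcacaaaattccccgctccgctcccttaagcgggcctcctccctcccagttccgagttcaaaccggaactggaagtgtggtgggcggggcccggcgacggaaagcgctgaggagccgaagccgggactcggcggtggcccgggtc
Dusp8: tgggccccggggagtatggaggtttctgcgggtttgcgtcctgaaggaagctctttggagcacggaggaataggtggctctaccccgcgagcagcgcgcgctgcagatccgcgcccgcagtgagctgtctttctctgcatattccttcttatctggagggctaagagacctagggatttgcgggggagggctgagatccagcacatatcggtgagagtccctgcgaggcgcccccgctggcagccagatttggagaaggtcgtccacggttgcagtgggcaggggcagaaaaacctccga
Dusp6: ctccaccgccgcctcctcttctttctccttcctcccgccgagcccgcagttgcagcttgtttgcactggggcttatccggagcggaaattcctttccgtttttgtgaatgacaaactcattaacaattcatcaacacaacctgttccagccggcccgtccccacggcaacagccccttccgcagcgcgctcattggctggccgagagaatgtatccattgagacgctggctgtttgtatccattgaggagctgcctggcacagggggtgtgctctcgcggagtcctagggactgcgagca
The motifs were the AP-1 site TGANTCA, the cAMP response element TGACGTCA, the ETS site CCGGAAG and the E-box CACGTG, and none of these spellings contains another. Dusp11 held the cAMP response element 103 bases before its start. Of all 33469 promoters of this length, 7.33% held the AP-1 site, 1.83% the cAMP response element, 8.75% the ETS site and 6.42% the E-box. Among the 32 promoters of members there were 1 with the AP-1 site (Map2k4), 3 with the cAMP response element (Dusp11, Mapk10 and Mapk1ip1), 2 with the ETS site (Dusp19 and Mapk8ip3) and 1 with the E-box (Mapk12). The base composition of the 5 printed promoters was 58% G and C for Dusp11, 55.3% for Dusp12, 61.7% for Map3k7, 61% for Dusp8 and 57.7% for Dusp6. Over all promoters the median was 51.7% and the quartiles were 44.7% and 60.3%. Dusp11, Dusp12 and Dusp6 lay between these quartiles, and Map3k7 and Dusp8 just above the upper one. A motif match is a match of letters and not a measured binding site.

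The MAP kinase phosphatases gave calls in both directions with insulin, and none against control. Of 8 genes, 5 were detected (Dusp5, Dusp6, Dusp7, Dusp8 and Dusp10). Dusp8 (probe ILMN_50424), a phosphatase of JNK and p38 with high expression in brain, had the largest difference of all members in insulin-treated against diabetic retinas. It had 8.68, 9.51 and 9.87 at the lowest, median and highest in insulin-treated retinas, 8.79, 8.33, 9.01, 7.89 and 8.60 in diabetic retinas and 8.68, 9.16 and 9.47 in control retinas. The ranges overlapped in both comparisons, although all 7 insulin-treated arrays lay above the diabetic mean and all 5 diabetic arrays below the control mean. The difference was 0.84 for insulin-treated minus diabetic (SE 0.21, 1.80-fold, adjusted p = 0.0187), and diabetic minus control gave -0.60 (SE 0.21, adjusted p = 0.112). On BeadChips 1 and 2 insulin-treated minus diabetic was 0.89 and 0.97, and diabetic minus control -1.03 and -0.30. Without diabetic replicate 2 or 4 the insulin difference missed the threshold (adjusted p = 0.0519 and 0.0559).

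Dusp6 (probe ILMN_48594), the cytoplasmic phosphatase of ERK, whose own transcription is known to follow ERK activity, was lower with insulin. Insulin-treated retinas lay close together at 7.24, 7.35 and 7.54 (lowest, median and highest). Diabetic retinas spread over 7.45, 7.79, 8.33, 8.08 and 7.47, and control retinas over 7.45, 7.56 and 7.94. Of the diabetic arrays, replicates 2, 3 and 4 stood above the whole insulin-treated range and replicates 1 and 5 within it. Dusp6 fell by 0.48 in insulin-treated against diabetic retinas (SE 0.13, adjusted p = 0.0291). Diabetic minus control was 0.21 (adjusted p = 0.379), and insulin-treated minus control was -0.27 with all 7 insulin-treated arrays below the control mean (adjusted p = 0.515). The call rested on single arrays: without diabetic replicate 2, 3 or 4 or insulin-treated replicate 6 the adjusted p lay between 0.0538 and 0.0822. With array weights the difference was -0.29 (adjusted p = 0.148).

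Dusp10, another phosphatase of JNK and p38, had means of 6.22 in insulin-treated, 6.38 in diabetic and 6.00 in control retinas. Its diabetic arrays read 6.45, 6.63, 6.96, 5.81 and 6.07, and the 3 arrays of BeadChip 2 were the high ones, so that diabetic minus control was -0.070 on BeadChip 1 and 0.70 on BeadChip 2 (0.39 in all, adjusted p = 0.257). Dusp5 and Dusp7, phosphatases of ERK in the nucleus and the cytoplasm, differed by -0.027 and -0.17 between diabetic and control retinas and by 0.10 and 0.16 between insulin-treated and diabetic retinas (adjusted p from 0.424 to 0.936).

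Mapk8ip1 (probe ILMN_63099) encodes JIP1, the scaffold that binds JNK with its upstream kinases and links them to the transport motor kinesin. Its signal was 9.08 at the lowest, 9.37 at the median and 9.46 at the highest in insulin-treated retinas. Diabetic retinas read 9.59, 9.57, 9.44, 9.55 and 9.53, and control retinas stood between 9.18 and 9.40. All 5 diabetic arrays lay above all 7 control arrays, and diabetic replicate 3 alone reached down into the insulin-treated range. The difference of 0.25 from control (SE 0.070) narrowly missed the threshold (adjusted p = 0.0541) and passed it with the BeadChip as a block (adjusted p = 0.0457) and after quantile normalization, where it was 0.32. With insulin Mapk8ip1 fell by 0.22 (SE 0.070, adjusted p = 0.0476), by 0.13 on BeadChip 1 and by 0.35 on BeadChip 2. That call was lost in 16 of 19 analyses without 1 array, with adjusted p up to 0.0966 without diabetic replicate 2, and kept in the other 3. Together with Dusp11 and Map3k4, Mapk8ip1 was 1 of 3 members (8.11%, beside 2.98% of all probes) whose diabetic and control ranges did not overlap. In insulin-treated against diabetic retinas 0 members were free of overlap, beside 3.73% of all probes, and in insulin-treated against control retinas 0, beside 0.215%.

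Of the other scaffolds and related proteins, Mapk8ip3, the JIP3 scaffold of JNK in axonal transport, differed by 0.068 between diabetic and control retinas and by -0.033 between insulin-treated and diabetic retinas (95% intervals -0.14 to 0.27 and -0.24 to 0.17). Mapk1ip1, named for its interaction with a MAP kinase, read 8.41 in insulin-treated, 8.26 in diabetic and 8.37 in control retinas, and all 7 insulin-treated arrays lay above the diabetic mean (difference 0.15, adjusted p = 0.199). Map3k7cl, a short relative of the C-terminal part of TAK1, was dim and variable, with SDs of 0.44 in insulin-treated, 0.55 in diabetic and 0.42 in control retinas and detection on 6 of 7 control arrays.

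Among the MAP3 kinases Map3k7 was called with insulin. Of 12 genes, 6 were detected, Map3k14 only through the insulin-treated group. Map3k7 (probe ILMN_62229) encodes TAK1, which carries signals of cytokine and TGF-beta receptors to JNK, p38 and NF-kappa B. Its signal was 5.65, 5.94 and 6.30 at the lowest, median and highest in insulin-treated retinas, 5.38, 5.09, 5.83, 5.59 and 5.46 in diabetic retinas and 5.61, 5.82 and 6.06 in control retinas. Diabetic replicate 3 lay within the range of both other groups, and the other 4 diabetic arrays lay below every array of both. The difference was 0.50 for insulin-treated minus diabetic (SE 0.12, 1.42-fold, adjusted p = 0.0173) and -0.37 for diabetic minus control (SE 0.12, adjusted p = 0.0959). The insulin call was lost without diabetic replicate 2 (0.41, adjusted p = 0.0549) and in no other analysis without 1 array. It was also lost with only the 2 groups compared (limma, adjusted p = 0.0525) and by the methods' t-test (adjusted p = 0.0818). The signal was dim, and the difference was 0.29 with a floor of 50 (adjusted p = 0.0694) and 0.26 with median-centred non-normalized signals (adjusted p = 0.0253).

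Map3k4, the MEKK4 kinase that GADD45 proteins activate, was not called. It read 10.00, 10.07 and 10.22 at the lowest, median and highest with insulin, 10.01, 9.97, 9.68, 9.95 and 9.99 in diabetic retinas and 10.03, 10.07 and 10.11 in controls. Every diabetic array lay below every control array, replicate 3 far below the rest, and diabetic minus control was -0.15 (SE 0.064, adjusted p = 0.175). Map3k14, the NF-kappa B inducing kinase, was detected on 3 of 5 diabetic and 5 of 7 control arrays, and its means were 4.58, 4.26 and 4.19 in insulin-treated, diabetic and control retinas. Map3k1, Map3k3 and Map3k12 (the MEKK1, MEKK3 and DLK kinases) differed by -0.25, -0.041 and 0.019 between diabetic and control retinas (adjusted p from 0.302 to 0.885). DLK, known in retinal ganglion cells for its part in the response to axon injury, had a 95% interval of this difference from -0.11 to 0.15.

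MAP4 kinases, MAP2 kinases, MAP kinases and the MAPKAP kinase gave 0 calls in any comparison. Map4k4, which relays stress signals to JNK, was dim and was detected on 7 of 7 insulin-treated, 5 of 5 diabetic and 6 of 7 control arrays. It read 4.44, 4.88 and 5.15 at the lowest, median and highest with insulin, 5.36, 4.60, 5.25, 5.92 and 5.20 in diabetic retinas and 4.00, 4.62 and 5.21 in controls. The groups overlapped, and diabetic minus control was 0.55 (SE 0.22, adjusted p = 0.162). Map4k3, a kinase that also reports amino acid supply to mTORC1, averaged 10.42 ± 0.34 with insulin (SD, n = 7), 10.18 ± 0.24 in diabetic (SD, n = 5) and 10.37 ± 0.16 in control retinas (SD, n = 7). Map4k5 averaged 7.21, 7.08 and 7.23 in these groups.

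The MAP2 kinases were among the steadiest members. Map2k1 and Map2k2, the MEK kinases of ERK, differed by -0.055 and 0.011 between diabetic and control retinas, with 95% intervals of -0.18 to 0.067 and -0.18 to 0.20. Map2k3 and Map2k6, kinases of p38, differed by -0.035 and 0.055, and Map2k4, a kinase of JNK and p38, by -0.14 (adjusted p from 0.469 to 0.871). Map2k5, the kinase of ERK5, was 0.24 higher in insulin-treated than in diabetic retinas by its means, with all 7 insulin-treated arrays above the diabetic mean (SE 0.094, adjusted p = 0.107). Map2k3 was the member of this group with the smallest p between insulin-treated and control retinas, at 9.42 ± 0.12 with insulin (SD, n = 7) and 9.62 ± 0.16 in controls (SD, n = 7), a difference of -0.20 (adjusted p = 0.515).

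Of 9 MAP kinase genes on the array with a named probe, 7 were detected. Mapk8, Mapk9 and Mapk10 encode JNK1, JNK2 and JNK3, the last known mainly from neurons. Mapk10 read 5.56, 5.86 and 6.00 at the lowest, median and highest with insulin, 5.54, 4.92, 5.89, 5.06 and 5.76 in diabetic retinas and 5.30, 5.58 and 5.87 in controls. Diabetic replicates 2 and 4 were below every array of both other groups, replicate 1 overlapped the controls alone and replicates 3 and 5 reached into the insulin-treated range, and insulin-treated minus diabetic was 0.39 (SE 0.14, adjusted p = 0.0851). Mapk8 averaged 7.49 ± 0.27 with insulin (SD, n = 7), 7.39 ± 0.48 in diabetic (SD, n = 5) and 7.51 ± 0.34 in control retinas (SD, n = 7). For diabetic minus control the 95% interval of Mapk8 ran from -0.53 to 0.29. Mapk9 differed by -0.071 between diabetic and control retinas and by 0.0043 between insulin-treated and diabetic retinas. Mapk14 and Mapk12, the p38 alpha and p38 gamma kinases, differed by 0.13 and 0.11 between diabetic and control retinas and by -0.13 and -0.21 with insulin (adjusted p from 0.210 to 0.589). Mapk6 and Mapk4, the atypical kinases ERK3 and ERK4, differed by 0.0049 and 0.21 between diabetic and control retinas (95% intervals -0.23 to 0.24 and -0.24 to 0.67), and Mapk4 was detected on 4 of 5 diabetic arrays. Mapkapk5, a kinase that p38 activates, read 10.73, 10.93 and 11.06 at the lowest, median and highest with insulin, 10.75, 10.36, 10.35, 10.69 and 10.75 in diabetic retinas and 10.53, 10.80 and 10.99 in controls. Insulin-treated minus diabetic was 0.32 (SE 0.10, adjusted p = 0.0527), just short of the threshold.

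The diabetic arrays varied more than the others. The median SD of the 37 members was 0.185 in insulin-treated, 0.251 in diabetic and 0.158 in control retinas, and the SD was largest in the diabetic group for 23 members. Among the 5 diabetic arrays replicate 2 held the lowest value for 14 members and replicate 3 the highest for 21. These 2 arrays also had the lowest array weights, 0.34 and 0.336. Without replicate 2 the members called were Dusp11 alone against control (1 of 37) and Dusp11 and Dusp12 with insulin (2 of 37), and all probes called were 111 and 542 in place of 299 and 1117. Without replicate 3 the members called were Dusp11, Map3k7 and Mapk8ip1 against control (3 of 37) and 6 of 37 with insulin, with Mapk10 in place of Dusp6, and 377 and 1494 probes.

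Within each BeadChip alone 0 members were called in any comparison. Of all probes 0.084%, 0.0746% and 0% were called on BeadChip 1 for diabetic against control, insulin-treated against diabetic and insulin-treated against control retinas, and 0%, 3.31% and 0.0373% on BeadChip 2. The called differences of all 6 members had the same sign on both. Dusp11 differed by -0.50 and -0.45 between diabetic and control retinas on BeadChips 1 and 2 and by 0.50 and 0.52 between insulin-treated and diabetic retinas. Dusp12 differed by -0.44 on both BeadChips and by 0.41 and 0.47 with insulin. With the BeadChip as a block the same 6 members were called with insulin, and Mapk8ip1 joined Dusp11 and Dusp12 against control. With the mean of the lens markers as a covariate Dusp11 kept its call against control (-0.47, adjusted p = 0.0362) and Dusp12 did not (-0.47, adjusted p = 0.0636). Under that covariate 0 members were called in insulin-treated against diabetic retinas, and 2 probes in all in place of 1117. The differences with insulin were then 0.49 for Dusp11, 0.52 for Dusp12, 0.44 for Map3k7, 0.61 for Dusp8, -0.56 for Dusp6 and -0.14 for Mapk8ip1, with adjusted p from 0.133 to 0.557. The mean log2 signal of the lens markers was 6.29 to 9.39 in insulin-treated and 8.62 to 12.5 in diabetic retinas. These ranges overlap little, so this model can hardly separate lens level from treatment. The lost insulin calls, here and in the gene lists below, therefore do not tell whether lens tissue took part. That was not tested.

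**Figure D3:**
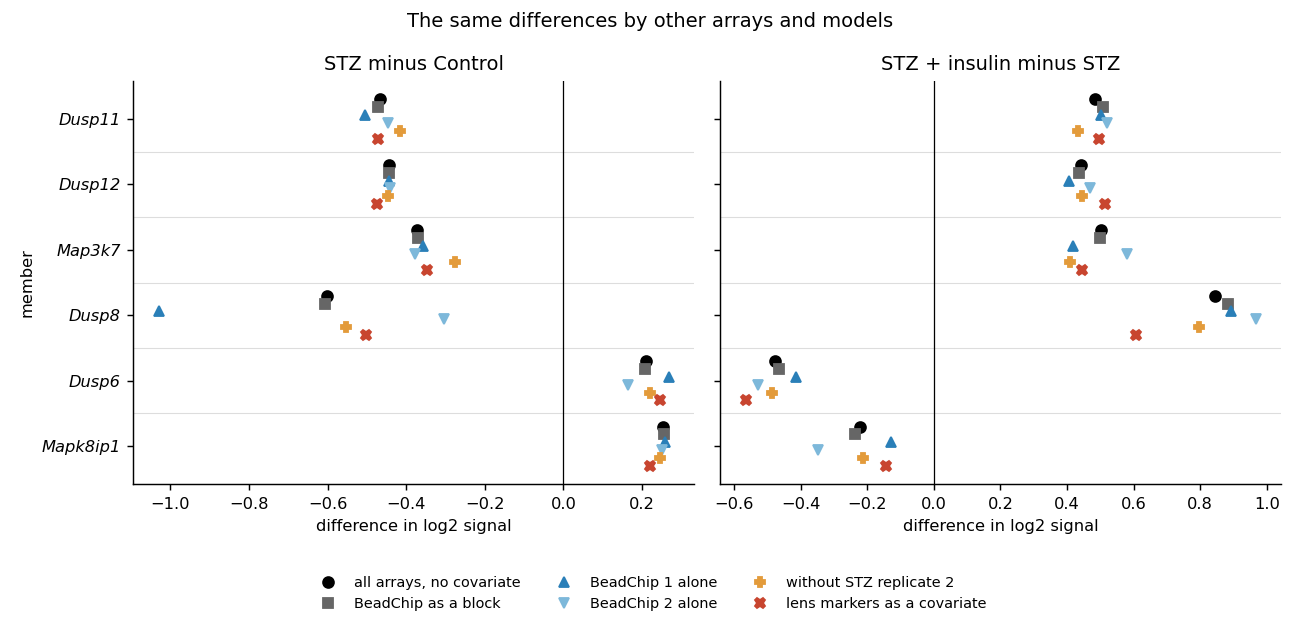
Difference in mean log2 signal (horizontal axis, no error bars) of the 6 called members for STZ minus Control and STZ + insulin minus STZ, with all arrays, with the BeadChip as a block, within each BeadChip, without STZ replicate 2 and with the mean of the lens markers as a covariate. The sign of each difference is the same under all 6, and Dusp8 varies most, from -1.03 on BeadChip 1 to -0.30 on BeadChip 2 for STZ minus Control.

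Beyond the kinases and phosphatases themselves, some genes of the 6 other pathway lists were called. The counts below stand beside 2.79% of all probes called in diabetic against control and 10.4% in insulin-treated against diabetic retinas. No list was tested as a set. A listed gene without a named probe counts among those not detected, so these counts do not show how many listed genes the retina expresses. In the list of Ras and Raf inputs to the ERK branch, 6 of 19 genes were detected, 1 was higher in diabetic than in control retinas and 2 were lower with insulin than in diabetic retinas. The higher one was Rras, a small GTPase related to Ras. It stood between 6.30 and 7.08 (median 6.34) in insulin-treated, between 6.91 and 7.83 (median 7.30) in diabetic and between 5.97 and 6.83 (median 6.66) in control retinas. All diabetic arrays lay above all control arrays, with a difference of 0.83 (SE 0.17, adjusted p = 0.0204), and insulin-treated minus diabetic was -0.91 (SE 0.17, adjusted p = 0.00604). Shc1, the adaptor that couples receptor tyrosine kinases to Ras, fell by 0.57 with insulin (SE 0.13, adjusted p = 0.0115). With the lens covariate both insulin differences lost their call, at -0.53 and -0.31 (adjusted p = 0.292 and 0.414). The median of the 6 genes was -0.025 for diabetic minus control and -0.41 for insulin-treated minus diabetic, beside -0.067 and 0.060 for all probes. The second value was -0.20 with median-centred non-normalized signals and -0.23 with the lens covariate, and insulin-treated minus control gave a median of -0.21 with 0 of 6 differences above 0. The Rras call against control was lost without diabetic replicate 2 (adjusted p = 0.0593) and with the lens covariate (adjusted p = 0.0534).

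Of the 11 detected among 21 inhibitors and scaffolds of Ras-ERK signalling, 1 was called in each of these comparisons, and it was Pea15 in both. Pea15 binds ERK and keeps it in the cytoplasm. It was higher in diabetic than in control retinas by 0.45 (SE 0.092, adjusted p = 0.0173) and lower with insulin than in diabetic retinas by a difference of -0.52 (SE 0.092, adjusted p = 0.00385), and the insulin-treated range of 6.69 to 6.95 did not meet the diabetic range of 7.14 to 7.48. No array decided either call (adjusted p up to 0.0415 and 0.0129 without 1 array). With the lens covariate the difference from control was 0.41 (adjusted p = 0.0494) and that with insulin -0.42, which lost its call (adjusted p = 0.181). The call against control was also lost with array weights, the replicate number as a block, only the 2 groups compared and the methods' t-test (adjusted p from 0.0502 to 0.0638, limma for the first 3). Among inputs to the stress MAP3 kinases, 16 of 28 genes were detected and 2 were higher in diabetic than in control retinas, with 0 calls with insulin. Gadd45g, a stress-induced activator of MEKK4, rose by 0.40 (SE 0.11, adjusted p = 0.0458) with no overlap between the groups, and Gadd45b, its relative, rose by 0.46 (SE 0.11, adjusted p = 0.0394). The call of Gadd45g was lost without any 1 of 14 arrays and that of Gadd45b without any 1 of 9. The list medians were -0.031 and -0.029 for the inhibitors and scaffolds and 0.073 and -0.095 for the stress inputs, in the same order of comparisons.

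Of the RSK, MSK and MNK kinases, which ERK and p38 activate, 4 of 8 were detected, all 4 had higher means in diabetic than in control retinas (35.3% of all probes did, and the list median was 0.28), and Mknk1 was called (0.37, SE 0.097, adjusted p = 0.0463, lost without any 1 of 15 arrays). Of the transcription factors and early targets, 18 of 33 were detected. The list medians were -0.070 and 0.15. Junb and Ier3, growth-factor-induced genes, were higher in diabetic than in control retinas (0.55 and 0.41, adjusted p = 0.0398 each) and Atf3, a stress-induced factor, was lower (-1.31, SE 0.33, adjusted p = 0.0398), and each of these calls was lost without any 1 of at least 8 arrays. With insulin Atf3, Egr1 and Jun were higher than in diabetic retinas and Ier3 and Ccnd1 were lower. Egr1, an early target of ERK through the factors SRF and ELK1, stood between 7.55 and 10.32 in insulin-treated, between 6.74 and 7.24 in diabetic and between 6.71 and 8.12 in control retinas. The insulin-treated and diabetic ranges did not overlap, and the difference was 1.78 (SE 0.46, adjusted p = 0.0216), 1.10 on BeadChip 1 and 2.67 on BeadChip 2. With the lens covariate all 5 insulin calls of this list were lost, at 1.21 for Egr1, 1.04 for Atf3, 1.11 for Jun, -0.36 for Ier3 and -0.39 for Ccnd1 (adjusted p from 0.248 to 0.626). Jun, the AP-1 subunit that JNK phosphorylates, differed by 1.22 (SE 0.37, adjusted p = 0.0414) and was named after its values had been seen. Ccnd1, the cyclin that growth factors induce, fell by 0.89 (SE 0.24, adjusted p = 0.0274). The Ccnd1 call was lost without any 1 of 5 arrays (adjusted p up to 0.0859), and that of Atf3 without diabetic replicate 2 or 4 (up to 0.058). Of 11 detected among 15 other phosphatases of MAP kinases, 0 were called in any comparison, and Acp1, a low molecular weight tyrosine phosphatase, had the smallest p against control (-0.19, adjusted p = 0.147). The list medians were -0.071 and 0.013.

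**Figure D4:**
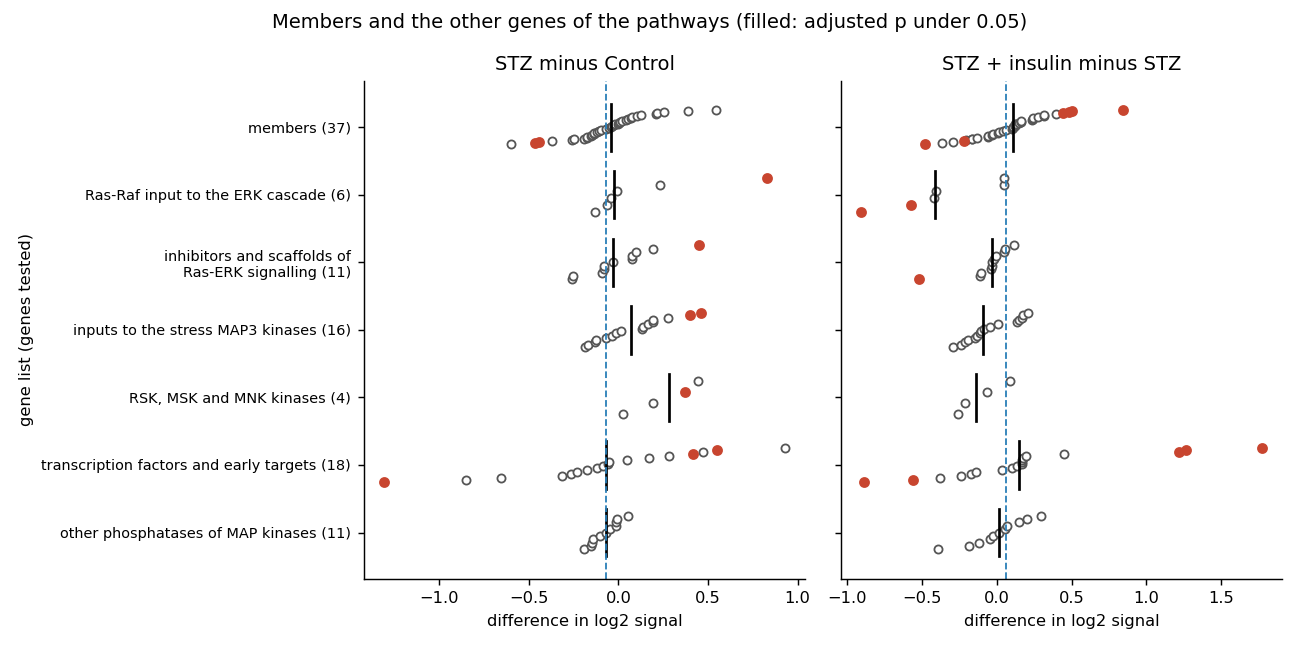
Difference in log2 signal (horizontal axis) of each detected gene in the members and in the 6 other pathway lists, for STZ minus Control and STZ + insulin minus STZ. Black bars mark list medians, the dashed line the median of all detected probes (-0.067 and 0.060), and filled red points passed the adjusted p.

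The other 21 genes that fit the symbol rule did not pass the detection filter, and no difference between groups is read from them. They were Mapk13 and Mapk15, Map2k7, Map3k6, Map3k8, Map3k9, Map3k10, Map3k11 and Map3k13, Map4k2, the phosphatase genes Dusp4, Dusp9 and Dusp16, the Dusp genes Dusp13b, Dusp14, Dusp15, Dusp18, Dusp21, Dusp23 and Dusp29, and Mapk1ip1l. Dusp4 and Dusp16, MAP kinase phosphatases, were at the floor of 3.32 on all 19 arrays. Map3k10 was detected on 6 insulin-treated, 3 diabetic and 6 control arrays, and Map3k6 on 6, 4 and 2. A gene below detection by its probe here may still be expressed.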

How the data were processed

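Retinal RNA of 19 rats was measured on 1 Illumina RatRef-12 array each. The methods describe a larger control group than the 7 control arrays analysed here. The authors removed arrays of poor quality, then used GenomeStudio (1.0.6, according to the submitters' processing notes) to subtract background and to bring all arrays to equal mean signal, which is called average normalization. The deposited intensities are linear and are given both with and without these steps. The detection p-value deposited with each signal compares it with negative control probes. A further deposited table held identical values for 22517 of 22517 probes and served to join the probes to their annotation, which names 13259 of them.

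Signals under 10 were set to 10 and put on the log2 scale. Probes whose detection p stayed below 0.05 throughout 1 group or more were tested by limma (3.58.1, under R 4.3.3). A single model held all 3 groups and no covariate, with Benjamini-Hochberg adjustment over 10718 probes. Where a gene has several detected probes, that of the highest mean was taken. The procedure was run on simulated arrays with independent noise per probe and added changes larger than those of any called member. The simulation held no BeadChip, lens or array effects, so it does not show how well changes of the size seen here are found. The number of arrays limits the precision. The p-values set each difference against 1 spread between arrays within groups, shared by all 3 groups. In this spread, differences between rats, arrays and dissections cannot be separated. The diabetic group was the smallest and its arrays varied most, so the shared spread can be too small for comparisons with it. The fit of only the 2 groups compared called 102 and 584 probes in these comparisons, in place of 299 and 1117. The BeadChip of each array came from the array names in the file headers.

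The members, the 6 pathway lists, the cell type markers and the motifs were chosen with earlier results of these data known. Named genes were those called in any comparison, those of smallest p in each role or list (in lists, at most 4 called genes per comparison) and Mapk8, Mapk14 and Dusp6, and the remaining members are given by their values. The alternatives were other floors (1 and 50), detection limits and normalizations, array weights, a prior that follows intensity, the t-test of the methods, a fit of only the 2 groups compared, a block for the BeadChip or for the replicate number, each BeadChip alone, the mean of the lens markers as a covariate, and each array left out in turn. Promoters were taken from RefSeq (GRCr8). No genome build is named for the probes, whose own positions are not given, and protein sequences were not used here. Values were tabulated in pandas 2.3.3 and numpy 2.4.6 and drawn with matplotlib 3.10.9.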

Additional observations from a re-analysis of the deposited data

Results flagged for a closer look

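In 6 of 96 groups of named genes a single array stood apart from the rest by Dixon's criterion, which chance meets in about 1 of 20 groups. Insulin-treated replicate 4 had 10.01 for Map2k4 (nearest array 10.43), and diabetic replicate 2 had 10.1 for the same gene (nearest 10.4). Diabetic replicate 3 had 9.677 for Map3k4 (nearest 9.951), control replicate 1 had 10.02 for Map4k3 (nearest 10.39), insulin-treated replicate 1 had 7.027 for Mapk12 (nearest 7.419) and insulin-treated replicate 3 had 7.081 for Rras (nearest 6.486). The 6 values came from 6 different arrays.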

How the results depend on the processing

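Of the 23 called differences of genes named by rule (Jun is not among them), none turned its sign under any alternative. They were kept in 581 of 828 recalculations and fell short of the threshold in 247. Members called in diabetic against control retinas numbered 2 of 37, and 1 without the detection filter, with median-centred non-normalized signals, with only the 2 groups compared and with the lens covariate (where 0.475%, 1.37%, 0.952% and 1.14% of all probes were called, in place of 2.79%), 0 on each BeadChip alone and 4 by the methods' t-test (unadjusted p under 0.05, fold change over 1.2) or at an adjusted p under 0.1. After Benjamini-Hochberg adjustment the methods' t-test called 2 (1.44% of all probes). For insulin-treated against diabetic retinas 6 were called (10.4% of all probes), and 3 without the detection filter (2.64%), 1 by the methods' t-test after Benjamini-Hochberg adjustment (3.24%; 8 members at its thresholds), 2 with only the 2 groups compared (5.45%) and 0 on each BeadChip alone or with the lens covariate. For insulin-treated against control retinas 0 were called, and 1 by the methods' t-test at its thresholds. The shares of all probes that pass the methods' thresholds or an adjusted p under 0.1 are not given here, so these member counts cannot be judged against them. By limma, 20.8%, 27.1% and 8.98% of all probes had an unadjusted p under 0.05 in the 3 comparisons. Without 1 array the counts ranged from 1 to 3, from 2 to 7 and from 0 to 0, and they were 1 and 2 without diabetic replicate 2 and 1 and 3 without diabetic replicate 4. After quantile normalization or neqc (2 and 6 called) the calls against control were Dusp11 and Mapk8ip1, 1 lower and 1 higher, in place of 2 lower, and of all probes 160 of 283 and 178 of 316 called were higher, in place of 95 of 299. With the replicate number as a block (replicate block) 1, 3 and 0 members and 80, 482 and 0 probes were called. Same-numbered arrays deviated together in no regular way (correlations from -0.244 to 0.273). No pairing of the rats by number was seen, but differences between arrays enter these correlations, so they cannot decide it. The causes were not tested. Dim signals (Dusp19, Map3k14, Map3k7cl, Map4k4, Mapk4 and Map3k7) limit what can be seen of those genes.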

Other observations

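Map3k8, the kinase TPL2 that drives ERK in immune cells, did not pass the detection filter and belongs to no comparison above. It was detected on 0 of 7 insulin-treated, 2 of 5 diabetic and 0 of 7 control arrays, with mean log2 signals of 3.49, 4.03 and 3.45. Map4k2 was detected on no array, was at the floor of 3.32 on all insulin-treated and control arrays, and averaged 3.68 in diabetic retinas, with a highest value of 3.99. Both genes were below detection on most arrays, and no difference between groups is read from these values.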
